A study of Mus musculus with 88 samples.

Results

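Trem2 deletion was examined in mice that deposit amyloid and carry human APOE3: 14 mice of the genotype APP/E3/Trem2ko were compared with 14 mice of the genotype APP/E3, 28 of the 88 mice and 2 of the 8 genotypes in the series. The mice were chosen by the genotype in the sample labels, and every gene with a mean of at least 1 CPM (the read count of a gene scaled to the size of its library) over the 88 mice was tested, 14086 of the 14451 genes in the table. Each of both groups held 7 females and 7 males, aged 6.5 months on average and of C57BL/6 background. All 28 mice were homozygous for human APOE3 placed in the mouse Apoe locus, and all carried the APP/PSEN1dE9 transgene, which includes human APP with the Swedish mutation and is driven by the mouse prion promoter. The APP/E3/Trem2ko mice were in addition homozygous for the em2Adiuj knockout allele of Trem2, a germline change present in every cell for life, while the APP/E3 mice had wild-type Trem2. Where other genotypes are set beside them, E3 and E3/Trem2ko (8 mice each) lack the transgene, and APP/E4 (14 mice) and APP/E4/Trem2ko (16 mice) carry human APOE4 with the transgene. RNA came from the frontal cortex of one hemisphere after saline perfusion and behavioural testing.

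TREM2 is a surface receptor of microglia, the resident macrophages of the brain. It binds lipids, lipoproteins such as APOE and amyloid, and signals through its adaptor TYROBP, the kinase SYK and the phospholipase PLCG2. In mice with amyloid plaques it is known for letting microglia gather at plaques and pass from a homeostatic state, marked by genes such as P2ry12, Tmem119 and Cx3cr1, to a disease-associated state. The complement protein C1q, which tags synapses and debris for uptake, is made in the brain mainly by microglia.

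The libraries held 49.27 to 60.28 M reads in APP/E3 mice and 45.15 to 56.65 M reads in APP/E3/Trem2ko mice. Reads counted to App, which include the transgene, ran from 3975 to 5933 CPM in APP/E3 mice and from 4983 to 6825 CPM in APP/E3/Trem2ko mice, all above the range of the E3 mice (2029 to 2677 CPM), and 0 of the 28 libraries went against the labelled sex. Markers of cortical glutamatergic neurons, astrocytes, oligodendrocytes and microglia were present in all 28, but the cortical neuron gene Neurod6 (median 74.1 CPM) stood at 8.47 CPM in APP/E3 replicate 4 and at 10.8 CPM in APP/E3/Trem2ko replicate 5. The striatal gene Drd2, a dopamine receptor, reached 10 CPM or more in 4 APP/E3 and 2 APP/E3/Trem2ko mice. The choroid plexus gene Ttr, a thyroxine carrier, reached 100 CPM or more in 5 of 14 APP/E3/Trem2ko mice (replicates 2, 3, 4, 6 and 14, at 283 to 2875 CPM) and in 0 of 14 APP/E3 mice, whose highest value was 25.01 CPM. The summed level of 11 choroid plexus genes in the table ran from 215 to 298 CPM (median 258) in APP/E3 and from 227 to 4568 CPM (median 282) in APP/E3/Trem2ko mice, and the counts of genes are given with and without those libraries.

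**Figure D1:**
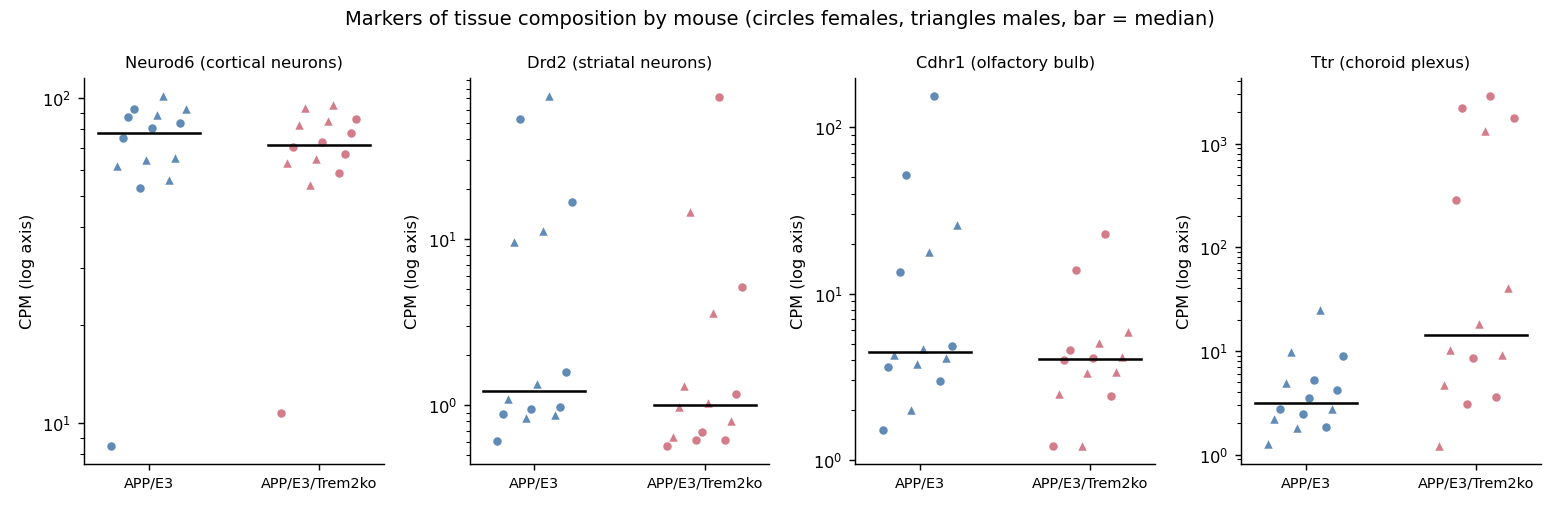
Level in CPM (log axis) of 4 genes that mark the tissue in each library, with APP/E3 mice in blue and APP/E3/Trem2ko mice in red, circles for females, triangles for males and a bar at the median. Ttr was at or above 283 CPM in 5 APP/E3/Trem2ko mice and at or below 25.01 CPM in every APP/E3 mouse, and Neurod6 was at 8.47 and 10.8 CPM in 1 mouse of each group.

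Trem2 itself was the gene with the smallest p. Its level ran from 10.3 to 19.5 CPM (median 14.6) in the 14 APP/E3 mice and from 1.46 to 3.94 CPM (median 2.19) in the 14 APP/E3/Trem2ko mice. The groups did not overlap, and Trem2 was the only one of the 14086 genes of which that was true (0.0071%). It fell by 2.44 on the log2(CPM + 0.5) scale (SE 0.137, limma with Benjamini-Hochberg adjustment over all genes tested, adjusted p = 4.61e-26), and the change was -2.52 in the E3 pair and -2.21 in the APP/E4 pair. Between 72 and 204 reads were still counted to Trem2 in each knockout library, against 560 to 1166 in APP/E3 libraries. The table counts reads over the whole gene, and which part of it they came from was not analysed here. Trem2 lies on chromosome 17 (48346401 to 48354147, plus strand, mm10), and of its 10 nearest tested neighbours, 5 on each side, 0 were called, with log2 fold changes from -0.14 to 0.08 and a lowest unadjusted p of 0.149 in the same limma fit. Other genes whose symbols begin with Trem were not analysed here.

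The promoters of Trem2 and of C1qb, a subunit gene of complement C1q on another chromosome that was also lower, are shown because both are genes of microglia, in which the factor PU.1 (Spi1) acts on many promoters. Each is the 250 bases before the transcription start in RefSeq (GRCm38.p6, the build also called mm10), read 5′ to 3′ on the strand of the gene, and capitals mark GAGGAA, the PU.1 core, or its reverse complement TTCCTC.
Trem2, chr17:48346151-48346400, plus strand: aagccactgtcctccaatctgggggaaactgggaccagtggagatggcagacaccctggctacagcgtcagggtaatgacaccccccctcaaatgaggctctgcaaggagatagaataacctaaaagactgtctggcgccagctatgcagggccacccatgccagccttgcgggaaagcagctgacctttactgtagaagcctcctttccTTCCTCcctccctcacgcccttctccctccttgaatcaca
C1qb, chr4:136886201-136886450, minus strand: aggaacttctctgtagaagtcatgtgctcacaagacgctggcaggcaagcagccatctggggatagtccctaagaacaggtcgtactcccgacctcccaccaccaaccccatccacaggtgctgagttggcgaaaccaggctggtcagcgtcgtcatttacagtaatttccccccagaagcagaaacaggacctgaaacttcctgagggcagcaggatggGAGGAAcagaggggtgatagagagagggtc
The letters GAGGAA, searched on both strands, occurred once in each window, 40 bases before the start of Trem2 on the opposite strand and 30 bases before the start of C1qb on its own strand. They also occurred in 23.25% of the 32851 promoters of this length in the table and in 22.02% of the 14016 promoters of genes tested, so the match is a description of these letters only.

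A gene is called here when its adjusted p was under 0.05. In the comparison of APP/E3/Trem2ko with APP/E3 mice 45 of 14086 genes were called (0.319%), 16 lower (0.114%) and 29 higher (0.206%), with a median log2 fold change over all genes of 0.01. In size, 14 of the 45 changes were under 0.3 on the log2 scale. The 9 lists of microglial and myeloid genes described below held 4 of the 45 (8.89%), Trem2, C1qa, C1qb and Themis2, all lower, and 176 of the 14086 genes tested (1.25%). The 4 include Trem2, the deleted gene itself, so the pooled lists are counted without it below. Without the libraries of 100 CPM or more of Ttr, which leaves 9 APP/E3/Trem2ko mice, 21 genes were called (5 lower, 16 higher), all 21 among the 45, and without the libraries under 20 CPM of Neurod6 37 were called (12 lower, 25 higher), 31 of them among the 45. Leaving out single mice gave from 33 calls, without APP/E3/Trem2ko replicate 3, to 61, without APP/E3 replicate 2 or APP/E3/Trem2ko replicate 12. The call held in each of the 28 fits without 1 mouse and under each of 12 other settings that kept both sexes for 20 genes. Trem2 was the only gene of the 9 lists among them, and the cell types that express the others were not tested. The other 19 were Ide, Btaf1, Fgfbp3, Ywhaq, Odc1, Ublcp1, Lyrm7, Rec8, Fggy, Mecr, Hp1bp3, Cox18, Nat8f4, Fyn, Ube2d3 and Gm4928, which rose, and Thg1l, Naaa and Aldh7a1, which fell. The remaining 25 called genes each lost the call under at least 1 setting, 24 of them without the high-Ttr libraries. In a bulk tissue sample fewer cells of a type and less RNA per cell cannot be told apart.

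The microglial genes were shifted together by a small amount. Over the 9 lists, which cover TREM2 signalling, the CSF1 receptor axis, homeostatic and disease-associated microglia, complement, phagocytic receptors, the phagocyte lysosome, myeloid transcription factors and myeloid adhesion, 175 genes other than Trem2 were tested and 130 of them (74.3%) had a log2 fold change below 0, against 46.8% of all genes tested. The median was -0.12, against 0.01 over all genes. An unadjusted p under 0.05 was reached by 43 of the 175 in the lower direction (24.6%, against 1.98% of all genes) and by 3 in the higher direction (3.58% of all genes), and 3 were called lower (1.71%, against 0.114% of all genes) and 0 higher (0.206% of all genes). Without the high-Ttr libraries 0 of the 175 were called by limma, 18 had an unadjusted p under 0.05 in the lower and 1 in the higher direction, and the median was -0.08. Without the libraries under 20 CPM of Neurod6 the median was -0.12 and only Themis2 was called. The same genes had a median of -0.18 in the E3 pair, with 18 called lower (1.65% of all genes were) and 1 higher (1.26%). In the APP/E4 pair it was -0.09, with 26 called lower (2.53% of all genes were) and 1 higher (11.3%). All 3 pairs have their own mice, but the lists were chosen with results of these data known.

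**Figure D2:**
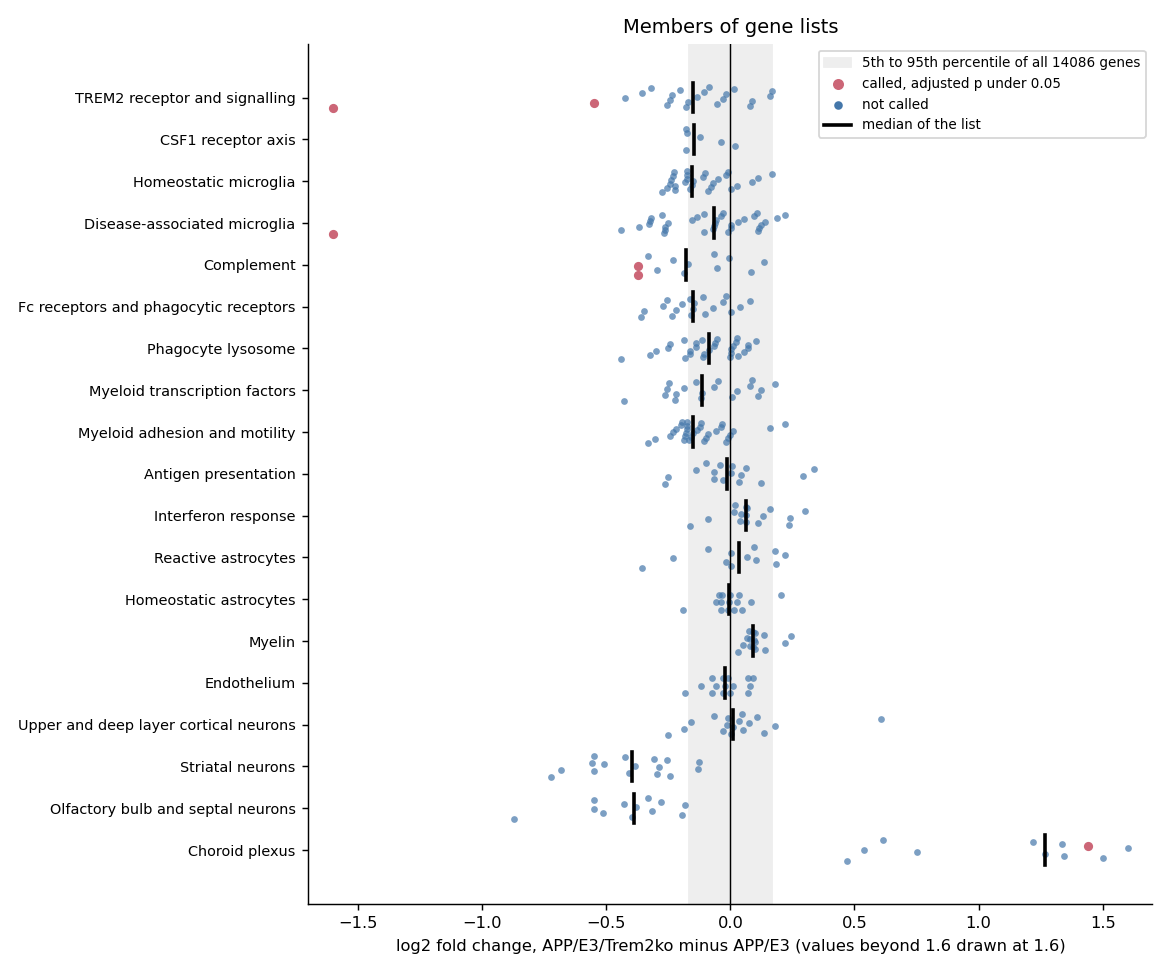
Log2 fold change between APP/E3/Trem2ko and APP/E3 mice (x axis) of each tested member of 19 gene lists, 1 list a line, with called genes in red, the others in blue, a bar at the median of each list and a grey band over most of the 14086 genes. The medians of the first 9 lists lie from -0.18 to -0.06, striatal and olfactory lists lie at -0.40 and -0.39, and choroid plexus at 1.27, with Trem2 (-2.44) and Ttr (3.44) drawn at the edge.

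C1q, the recognition molecule of the classical complement pathway, is built from chains encoded by C1qa, C1qb and C1qc, which lie side by side on chromosome 4. C1qa ran from 51.8 to 79.4 CPM (median 63.9) in APP/E3 mice and from 36.7 to 65.9 CPM (median 48.5) in APP/E3/Trem2ko mice. The groups overlapped, with 10 of 14 knockout mice below every APP/E3 mouse and APP/E3/Trem2ko replicate 12 (65.9 CPM) alone above the APP/E3 median. C1qa fell by 0.37 on the log2 scale (SE 0.0875, limma, adjusted p = 0.023). C1qb ran from 15.7 to 23.2 CPM (median 20.02) and from 9.35 to 20.9 CPM (median 15.6), with 7 of 14 knockout mice below every APP/E3 mouse, and also fell by 0.37 (SE 0.0916, adjusted p = 0.0367). C1qc ran from 36.7 to 62.2 CPM (median 48.1) and from 30.6 to 52.2 CPM (median 38.8), and its change of -0.30 (SE 0.0897) did not pass the test (limma, adjusted p = 0.166). In the E3 pair the C1qa, C1qb and C1qc changes were -0.55, -0.47 and -0.46 and all 3 were called, and in the APP/E4 pair they were 0.02, -0.16 and -0.05 and 0 of the 3 were called.

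The C1q calls moved with the libraries. Without the libraries of 100 CPM or more of Ttr the C1qa change was -0.29 (limma, adjusted p = 0.617) and the C1qb change -0.26 (adjusted p = 0.938), and with the choroid plexus, striatal and olfactory levels as covariates they were -0.27 (adjusted p = 0.534) and -0.24 (adjusted p = 0.796). Without the libraries under 20 CPM of Neurod6 they stood at -0.37 and -0.39 and did not pass the test (adjusted p = 0.0521 and 0.0547). The C1qa call was lost without APP/E3/Trem2ko replicate 2 or 3, which had the lowest C1qa levels and are among the 5 libraries of high Ttr, and the C1qb call was lost in 13 of 28 such fits. The part of the choroid plexus tissue in these calls was not tested beyond those values.

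Among genes of TREM2 signalling, 22 of 23 listed were tested and 17 lay below 0 (median -0.15), with Trem2 and Themis2 the 2 called. Themis2, a signalling scaffold of macrophages and B cells, ran from 1.05 to 3.10 CPM (median 2.12) in APP/E3 mice and from 0.79 to 1.78 CPM (median 1.01) in APP/E3/Trem2ko mice. All 14 knockout mice lay below the APP/E3 median and 8 below every APP/E3 mouse. Themis2 fell by 0.55 (SE 0.124, limma, adjusted p = 0.0137), with -0.66 in the E3 pair (called) and 0.21 in the APP/E4 pair (not called), and its call was lost without the high-Ttr libraries (adjusted p = 0.0519), with the tissue covariates (adjusted p = 0.13) and in the 28 mice alone (adjusted p = 0.054). The adaptor Tyrobp ran from 7.60 to 17.8 CPM (median 9.25) and from 5.74 to 9.75 CPM (median 7.66), a difference of -0.32 (SE 0.167) that did not pass the test (limma, adjusted p = 0.904). The immune adaptor Lat2 (-0.43, adjusted p = 0.157), the lipid kinase subunit Pik3cg (-0.36, adjusted p = 0.18) and the lipid phosphatase Inpp5d (-0.24, adjusted p = 0.493) also did not pass, and Adam17, a sheddase of TREM2, stood at 0.17.

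**Figure D3:**
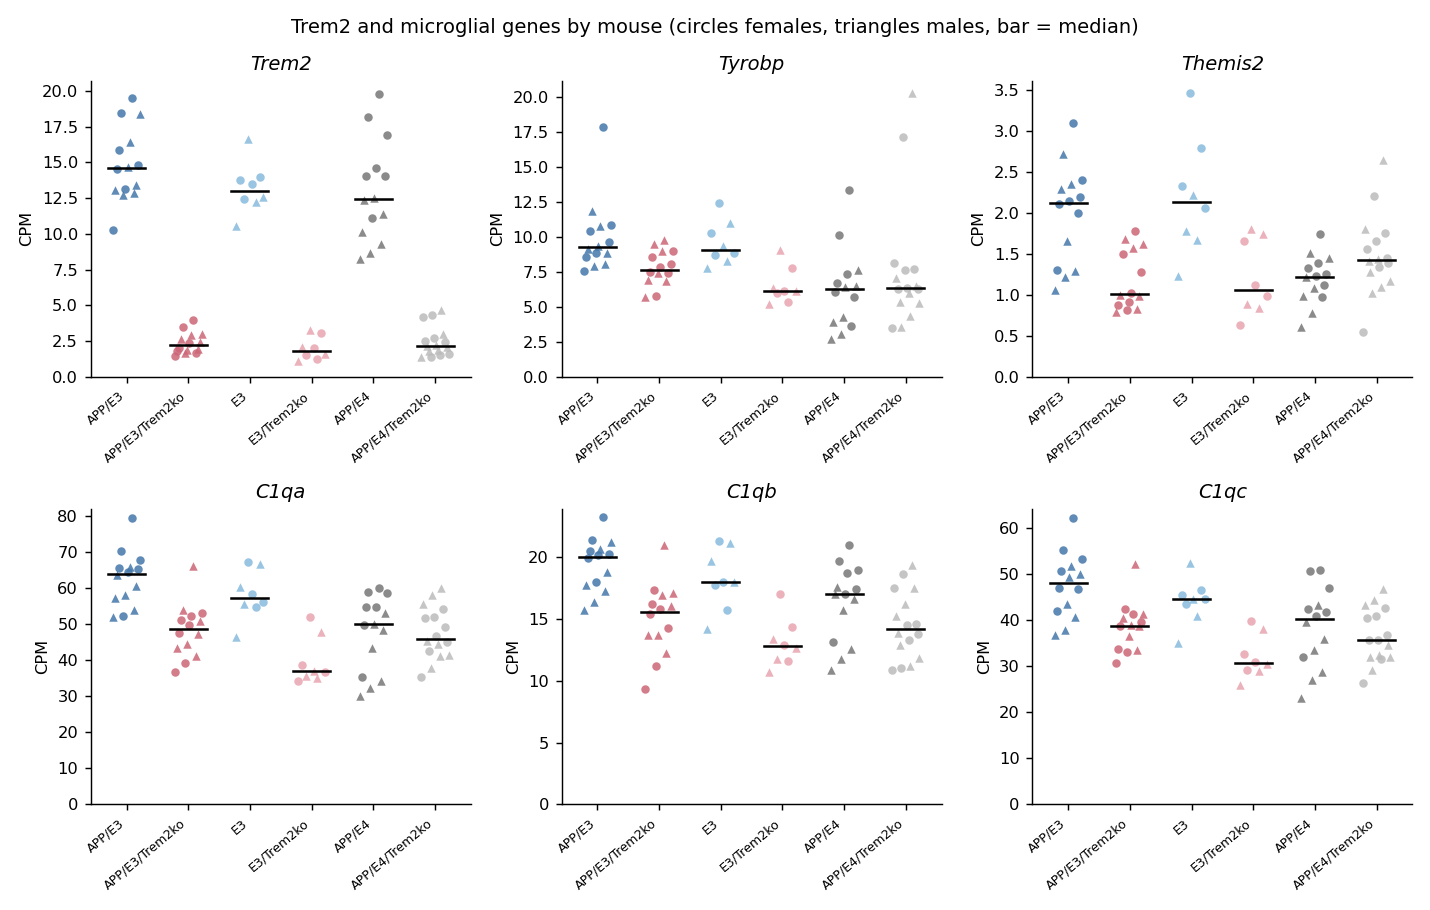
Level in CPM of Trem2, Tyrobp, Themis2, C1qa, C1qb and C1qc in every mouse of 6 genotypes, with circles for females, triangles for males and a bar at the median. Trem2 separates each knockout group from its partner, and C1qa in APP/E3/Trem2ko mice (36.7 to 65.9 CPM) overlaps APP/E3 mice (51.8 to 79.4 CPM).

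The homeostatic list held 28 tested genes, of which 23 lay below 0 (median -0.15), 8 with an unadjusted p under 0.05, and 0 were called. Cx3cr1, the fractalkine receptor, ran from 57.0 to 92.6 CPM (median 70.5) in APP/E3 and from 51.1 to 70.0 CPM (median 60.9) in APP/E3/Trem2ko mice, a difference of -0.24 (limma, adjusted p = 0.377). Tmem119, a microglial membrane protein, differed by -0.23 (adjusted p = 0.308), the checkpoint receptor Vsir by -0.22 (adjusted p = 0.225) and the purinergic receptor P2ry12 by -0.24 (adjusted p = 0.691). Without the high-Ttr libraries 0 of the 28 reached an unadjusted p under 0.05 and the median was -0.09. Csf1r, the growth factor receptor on which microglia depend, ran from 87.4 to 139 CPM (median 108) and from 79.8 to 110 CPM (median 93.7), a difference of -0.17 (adjusted p = 0.633), and 5 of the 6 genes of its axis lay below 0.

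Of 44 disease-associated microglia genes, 34 were tested, and the others, among them Clec7a, Cst7 and Itgax, were not analysed here. The median was -0.06, with 22 of 34 below 0 and Trem2 alone called. Slc15a3, a lysosomal peptide transporter, came nearest, with 1.70 to 3.68 CPM (median 2.38) in APP/E3 and 1.08 to 2.96 CPM (median 1.64) in APP/E3/Trem2ko mice and a difference of -0.44 (SE 0.117, limma, adjusted p = 0.0779). In the E3 and APP/E4 pairs Slc15a3 changed by -0.62 and -0.76 and was called in both. The pore-forming Mpeg1 stood at -0.33 (adjusted p = 0.244), the chemokine Ccl6 at -0.37 (adjusted p = 0.396) and the protease Ctss at -0.32 (adjusted p = 0.458). The lipid-handling genes of that state, Lpl (0.11), Cd9 (0.11) and Spp1 (0.22), lay above 0 with an adjusted p of 1. Reads counted to mouse Apoe, whose coding sequence is replaced by the human one in all 28 mice, ran from 14.96 to 21.3 CPM and from 15.01 to 23.0 CPM. Where in the gene those reads fell was not analysed here, so they are not taken as the level of human APOE.

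The other myeloid lists had medians from -0.18 (complement) to -0.08. Complement genes outside C1q were not called, with the integrin chain Itgb2 at -0.33 (adjusted p = 0.142) and C3 at -0.17. Phagocytic receptors had a median of -0.15 with 16 of 19 below 0, led by the innate sensor Tlr13 (-0.36, limma, adjusted p = 0.236) and the accessory protein Ly86 (-0.35, adjusted p = 0.361). Lysosomal genes had a median of -0.08 with 19 of 29 below 0, and adhesion and motility genes one of -0.15 with 27 of 31 below 0. Among transcription factors, Spi1, which encodes PU.1, stood at -0.26 (adjusted p = 0.41) and the interferon regulatory factor gene Irf8 at -0.22 (adjusted p = 0.612). Antigen presentation genes were centred at -0.01 and interferon response genes at 0.06, with 2 of 16 at an unadjusted p under 0.05 in the higher direction and 0 called in either list.

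Of the 175 microglial genes, 10 lie on chromosome 4, and these held all 3 calls. The other 165, on other chromosomes, had 0 calls by limma and by edgeR and 1 by DESeq2 (the lysosomal mannosidase Man2b1), with 37 with an unadjusted p under 0.05 lower and 3 higher in the limma fit, and a median of -0.11. C1qa, C1qb and Themis2 lay in a stretch of 7.25 Mb (131843470 to 139092993) in which 6 of 120 tested genes were called (5%, against 0.319% of all genes). Its bounds, like those of the stretches below, are the first and last called gene, which by itself raises the share called. The other calls there were Nbl1, which encodes an antagonist of bone morphogenetic proteins and fell by 0.57 (SE 0.126), Mecr, an enzyme of mitochondrial fatty acid synthesis, which rose by 0.60 (SE 0.0986), and Hp1bp3, a heterochromatin-binding protein, which rose by 0.25 (SE 0.0428). The Nbl1 call was lost without the high-Ttr libraries (limma, adjusted p = 0.256), with the tissue covariates (adjusted p = 0.0648) and in the 28 mice alone (adjusted p = 0.0598). Mecr ran from 4.89 to 10.3 CPM in APP/E3 and from 9.39 to 12.7 CPM in APP/E3/Trem2ko mice, with 9 of 14 knockout mice above every APP/E3 mouse. In the E3 pair Mecr changed by 0.38 and Hp1bp3 by 0.08, and both were not called. What part the position had in the C1q and Themis2 calls was not tested.

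Many of the called genes were neighbours: 24 of 45 (53.3%) had another called gene within 5 Mb, while 15.6% of all tested genes lay within 5 Mb of a called gene. Chromosome 4 held 9 calls among 858 tested genes (1.05%), chromosome 12 held 5 of 511 (0.978%) and chromosome 19 held 4 of 468 (0.855%), against 0.319% over all chromosomes. Of the 45 genes, 25 were also called in the same direction in the E3 pair, where 2.92% of all genes were called, and 43 had the same sign. In the APP/E4 pair, where 13.8% of all genes were called, 5 of the 45 were called in the same direction and 30 had the same sign. What part other inherited differences between the genotypes had in the neighbouring calls was not tested.

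**Figure D4:**
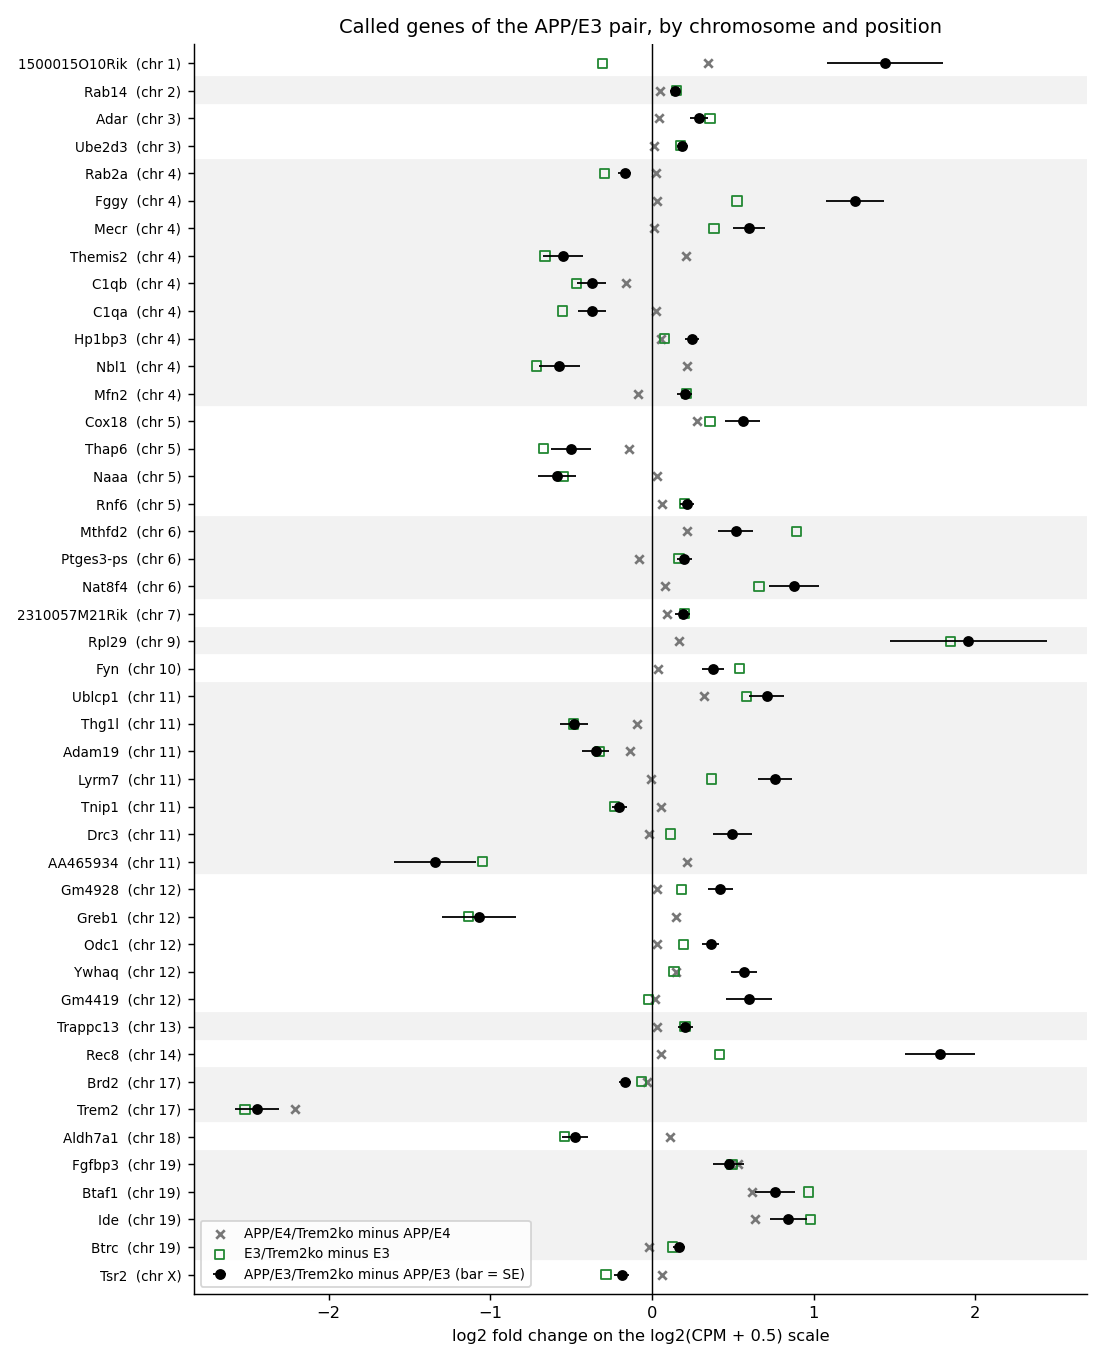
Log2 fold change on the log2(CPM + 0.5) scale (x axis) of the 45 called genes in the order of their position, with black points and SE bars for the APP/E3 pair, green squares for the E3 pair and grey crosses for the APP/E4 pair. Ide, Btaf1 and Fgfbp3 on chromosome 19 and Ublcp1 on chromosome 11 lie to the right in all 3 pairs, while most grey crosses lie near 0.

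The stretch on chromosome 19 (36917550 to 37337852) held 3 calls among 4 tested genes, Ide, Btaf1 and Fgfbp3, and was higher in all 3 pairs. Ide, the insulin-degrading enzyme, which also cleaves amyloid beta peptide, ran from 38.9 to 46.1 CPM (median 42.1) in APP/E3 mice and from 36.8 to 103 CPM (median 82.6) in APP/E3/Trem2ko mice. Of the 14 knockout mice 13 lay at 59.8 CPM or more, above every APP/E3 mouse, and replicate 2 alone, at 36.8 CPM, lay below them all. Ide rose by 0.84 (SE 0.113, limma, adjusted p = 3.61e-07), with 0.98 in the E3 pair and 0.64 in the APP/E4 pair, both called. Btaf1, an ATPase that releases the TATA-binding protein from DNA, rose by 0.76 (SE 0.123), and Fgfbp3, a carrier of fibroblast growth factors, by 0.47 (SE 0.0978). In replicate 2 Btaf1 (26.2 CPM) and Fgfbp3 (7.49 CPM) were also the lowest of the knockout group. Whether these rises came from the loss of Trem2 or from another inherited difference at this place was not tested. Nearby genes on the same chromosome were not called, the kinesin Kif11 (0.15), the homeobox gene Hhex (-0.15) and the mRNA-binding Cpeb3 (0.00).

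On chromosome 12 a stretch from 16670615 to 21421064 held 4 calls among 21 tested genes. Ywhaq, an adaptor that binds phosphorylated proteins, ran from 49.6 to 111 CPM (median 75.5) in APP/E3 and from 98.6 to 132 CPM (median 110) in APP/E3/Trem2ko mice and rose by 0.57 (SE 0.0795, limma, adjusted p = 9.7e-07). Only APP/E3 replicate 7, at 111 CPM, reached the knockout range, while the other 13 lay at or under 83.2 CPM. Odc1, the first enzyme of polyamine synthesis, rose by 0.36 (SE 0.0534), again with replicate 7 (38.7 CPM) alone at the level of the knockouts (29.5 to 38.4 CPM) and the other 13 at or under 28.3 CPM. In the E3 pair Ywhaq changed by 0.14 and Odc1 by 0.19, and both were not called. E3 mice had medians of 104 CPM for Ywhaq and 31.2 CPM for Odc1. Gm4419 rose by 0.60 (SE 0.143), but it overlaps Ywhaq on the opposite strand, and whether counting used strand is not given in the sources used here. Greb1, an oestrogen-responsive gene, fell by 1.07 (SE 0.227), a call that was lost without the high-Ttr libraries (limma, adjusted p = 0.288) and with the tissue covariates (adjusted p = 0.132). The Gm4419 call was also lost without the high-Ttr libraries.

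Chromosome 11 held 7 calls. From 44454571 to 46147343 there were 3 among 7 tested genes. Ublcp1, a phosphatase of the proteasome, was higher by 0.71 (SE 0.11). It was also called higher in the E3 pair (0.59) and in the APP/E4 pair (0.32). Thg1l, a tRNA guanylyltransferase, and the metalloprotease Adam19 were lower, with log2 fold changes of -0.48 and -0.35. From 54826866 to 54962917 there were 2 among 4. Lyrm7, an assembly factor of respiratory complex III, ran from 4.41 to 15.6 CPM (median 8.69) in APP/E3 and from 11.5 to 17.3 CPM (median 14.1) in APP/E3/Trem2ko mice and rose by 0.76 (SE 0.107, limma, adjusted p = 1.03e-06). The APP/E3 mice were spread, 6 of them at or under 5.61 CPM, while the knockouts were not. In the E3 pair Lyrm7 changed by 0.37 (not called), with a median of 9.75 CPM in E3 mice. Tnip1, an inhibitor of NF-kB signalling, fell by 0.20 (SE 0.0479). The Adam19 and Tnip1 calls were lost without the high-Ttr libraries.

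AA465934, at 83291699 to 83294632 of chromosome 11, showed the reverse pattern. It ran from 0.42 to 1.66 CPM (median 1.07) in APP/E3/Trem2ko mice. Of the APP/E3 mice 6 lay at or under 1.54 CPM and 8 at 5.16 to 11.7 CPM. AA465934 fell by 1.34 (SE 0.252, limma, adjusted p = 0.000703), a call that was lost in the 28 mice alone (adjusted p = 0.0725). Rpl29, a ribosomal protein gene of chromosome 9, rose by 1.96 (SE 0.485, adjusted p = 0.0394), with 41.2 to 63.8 CPM in all APP/E3/Trem2ko mice, 24.7 to 67.5 CPM in 9 APP/E3 mice and at most 1.67 CPM in the other 5. Those 5 (replicates 4, 5, 8, 9 and 13) include the 4 APP/E3 mice of 10 CPM or more of Drd2 and are also among the 6 low in AA465934. The Rpl29 call was lost without any 1 of those 5 mice and in 14 of the 28 such fits in all. The Rpl29 change was 0.76 by both edgeR (adjusted p = 0.854) and DESeq2 (adjusted p = 0.82), and the call was also lost without the high-Ttr libraries (limma, adjusted p = 0.288) and in the 28 mice alone (adjusted p = 0.274). Rpl29 has processed copies in the genome, and whether reads from them enter its level was not tested.

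**Figure D5:**
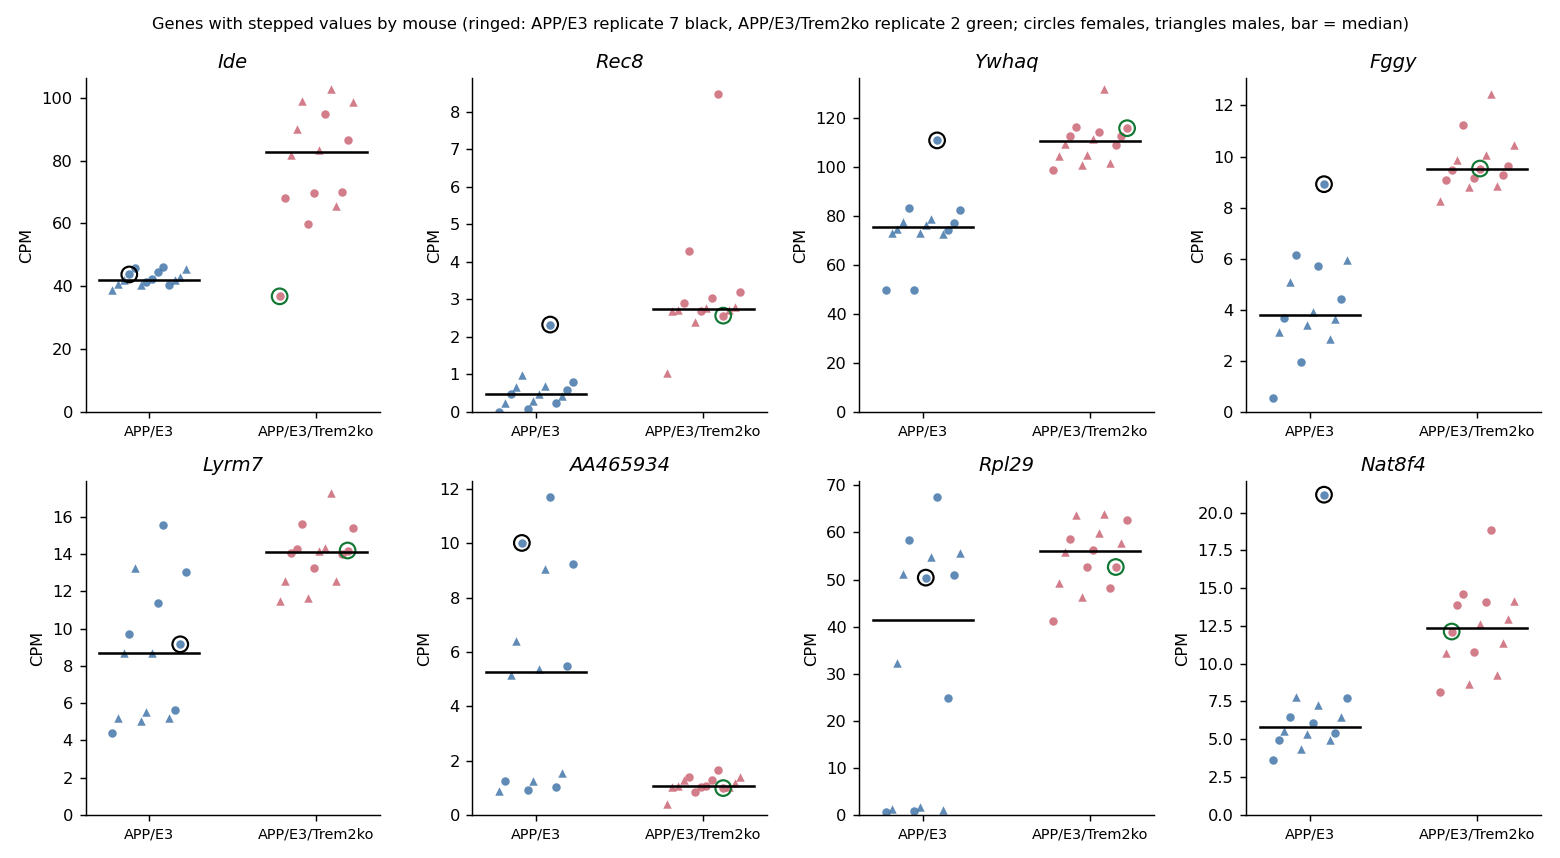
Level in CPM of 8 called genes in each APP/E3 (blue) and APP/E3/Trem2ko (red) mouse, circles for females, triangles for males and a bar at the median, with APP/E3 replicate 7 ringed in black and APP/E3/Trem2ko replicate 2 in green. Replicate 7 of APP/E3 sits with the knockouts for Ywhaq (111 CPM), Fggy, Rec8 and Nat8f4, and replicate 2 of APP/E3/Trem2ko sits with the APP/E3 mice for Ide (36.8 CPM).

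The same APP/E3 mouse stood with the knockouts for genes on other chromosomes. Rec8, a cohesin subunit of meiosis, on chromosome 14, ran from 0 to 2.33 CPM (median 0.473) in APP/E3 and from 1.02 to 8.46 CPM (median 2.74) in APP/E3/Trem2ko mice, with replicate 7 at 2.33 CPM and the other 13 APP/E3 mice at or under 0.985 CPM. Rec8 rose by 1.78 (SE 0.218, limma, adjusted p = 2e-08). In the E3 pair Rec8 changed by 0.42 (not called), and E3 mice, with intact Trem2, ran from 0.08 to 6.14 CPM (median 2.55). Fggy, a carbohydrate kinase gene on chromosome 4, ran from 0.56 to 8.92 CPM (median 3.81) and from 8.26 to 12.5 CPM (median 9.50), with replicate 7 at 8.92 CPM and the next APP/E3 mouse at 6.13 CPM, and rose by 1.26 (SE 0.177). In the E3 pair Fggy changed by 0.53 (not called), and E3 mice ran from 0.92 to 10.8 CPM (median 8.52). Over the 44 called genes other than Trem2, replicate 7 lay on the knockout side of the midpoint between the group medians for 17, the other APP/E3 mice for 2 to 13 and the knockout mice for 27 to 42. These counts describe the genes that the comparison chose.

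Chromosomes 5 and 6 held 3 neighbouring calls each. On chromosome 5 (90214724 to 92278170, 3 of 11 tested) Cox18, an assembly factor of cytochrome oxidase, rose by 0.56 (SE 0.109), while Naaa, a lysosomal hydrolase of fatty acid ethanolamides, and Thap6 fell. Naaa ran from 23.7 to 48.4 CPM (median 34.2) and from 16.99 to 31.6 CPM (median 22.7), with all 14 knockout mice below the APP/E3 median, and fell by 0.59 (SE 0.118, limma, adjusted p = 0.00199). On chromosome 6 (83305691 to 85904884, 3 of 28 tested) Mthfd2, a mitochondrial folate enzyme, rose by 0.52 (SE 0.108) and by 0.89 in the E3 pair. Nat8f4, of an acetyltransferase family with close copies, and the pseudogene Ptges3-ps rose by 0.88 and 0.20. Whether reads shared with their copies enter these values was not tested. The Thap6, Mthfd2 and Ptges3-ps calls were lost without the high-Ttr libraries.

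Other genes were called without a called neighbour. The Src-family kinase Fyn, on chromosome 10, ran from 67.7 to 97.3 CPM (median 72.9) and from 72.3 to 138 CPM (median 101) and rose by 0.38 (SE 0.0682, limma, adjusted p = 0.000331), with 9 of 14 knockout mice above every APP/E3 mouse. It changed by 0.54 in the E3 pair (called) and by 0.04 in the APP/E4 pair (not called). Aldh7a1, an enzyme of lysine breakdown, fell by 0.48 (SE 0.0826), and the RNA-editing enzyme Adar rose by 0.29 (SE 0.0562). The ubiquitin-pathway genes Ube2d3 (0.19), Btrc (0.17) and Rnf6 (0.22), the trafficking gene Rab14 (0.14) and Mfn2 (0.20), which fuses mitochondria, rose by less than 0.3, and the trafficking gene Rab2a (-0.17) and the bromodomain gene Brd2 (-0.17) fell by less than 0.3. The calls of Adar, Btrc, Rnf6, Rab14, Mfn2, Rab2a and Brd2 were lost without the high-Ttr libraries. Of the 17 tested genes of amyloid precursor processing Ide alone was called, with App at 0.13 (adjusted p = 0.659), a value that includes reads from the transgene.

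Among lists of other cell types, choroid plexus genes had the highest median. Of 11 choroid plexus genes 0 lay below 0, the median was 1.27 and 9 reached an unadjusted p under 0.05, but only 1500015O10Rik was called (1.44, SE 0.357), with 10 knockout mice at or under 2.19 CPM and 4 at 14.3 CPM or more. Without the high-Ttr libraries the median was 0.12 and 0 were called. Ttr itself had a fold change of 3.44 on the log2 scale (limma, adjusted p = 0.0663). All 16 striatal genes (median -0.40) and all 12 olfactory bulb and septal genes (median -0.39) lay below 0, with 0 called and 0 at an unadjusted p under 0.05.

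Reactive astrocyte genes had a median of 0.04 over 12 genes and homeostatic astrocyte genes one of 0.00 over 15, with 0 called. Gfap, the astrocyte filament protein, ran from 79.0 to 262 CPM and from 88.6 to 320 CPM, and the protease inhibitor Serpina3n from 7.02 to 22.4 CPM (median 13.1) and from 5.33 to 24.5 CPM (median 9.49), a difference of -0.36 in the APP/E3 pair (adjusted p = 1) and of -1.23 in the APP/E4 pair (called). All 16 myelin genes lay above 0 with a median of 0.09, which was 0.00 without the high-Ttr libraries. Neuronal immediate early genes had a median of -0.34 over 17 genes, led by the activity-dependent factor Npas4 (-0.98, limma, adjusted p = 0.625), which ran from 9.47 to 96.1 CPM and from 5.86 to 72.0 CPM. Endothelial, cortical layer, respiratory chain and ribosomal lists had medians from -0.02 to 0.01 with 0 called.

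The effect, here the difference between knockout mice and mice with wild-type Trem2, was then set beside 3 others. Between females and males the effect of the deletion differed for 0 genes by limma (0.0% of 14086), with 208 genes at an unadjusted p under 0.05 in the negative and 195 in the positive direction, and for 0 genes by edgeR and by DESeq2. C1qa changed by -0.49 in females and -0.25 in males, and the smallest p belonged to the chemerin receptor gene Cmklr1 (-0.77, adjusted p = 1). Between APP/E3 and E3 mice the effect also differed for 0 genes by limma, with 398 and 506 at an unadjusted p under 0.05, 0 by edgeR and 1 by DESeq2, and the smallest p belonged to Prnp (0.40, adjusted p = 0.589), whose promoter drives the transgene. The Prnp median was 1042 CPM in E3, 833 CPM in E3/Trem2ko, 2857 CPM in APP/E3 and 2967 CPM in APP/E3/Trem2ko mice. Whether the Prnp counts include reads from the transgene was not tested.

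Between the APOE3 and APOE4 mice with the transgene the effect of the deletion differed for 52 genes (0.369%), 33 lower (0.234%) and 19 higher (0.135%) in the APP/E3 pair. The share that was higher was 36.5%, and with TMM scaling, which moved the median over all genes from -0.03 to 0.01, it was 55.2% of 67 genes. Of the 45 genes called in the APP/E3 pair 11 were among the 52, the number that passed a test of the difference itself. The 45 were chosen with the same APP/E3 and APP/E3/Trem2ko mice that enter the difference, which by itself raises that number. Fggy differed by 1.22, Rec8 by 1.73, Lyrm7 by 0.77 and Mecr by 0.58, and Themis2 by -0.76, while C1qa, C1qb and Ide were not among them. In APP/E4 mice Rec8 was at 1.49 to 4.61 CPM with Trem2 intact, a range that lay largely above that of APP/E3 mice (0 to 2.33 CPM). For Fggy the medians were 3.81 CPM in APP/E3, 9.50 CPM in APP/E3/Trem2ko and 9.28 CPM in APP/E4 mice. In the same order they were 8.69, 14.1 and 12.8 CPM for Lyrm7 and 6.87, 10.7 and 9.12 CPM for Mecr. For Themis2 they were 2.12, 1.01 and 1.22 CPM. What part these levels with Trem2 intact had in the differences was not tested.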

How the data were processed

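Frontal cortex RNA of 88 mice was sequenced, and the authors deposited a CPM (library-scaled read count) table of 14497 entries. The submitters' processing notes name mm10, featureCounts and edgeR, and the strand setting is not given in the sources used here. The 46 entries that repeated a gene were left out, 14219 of 14451 genes were positioned with the GENCODE annotation, and genes whose average over all mice reached 1 CPM entered the test. The values came out as whole reads within 0.01 of a read for 100% of entries in all libraries, and 23 met a stricter test on low values, so edgeR and DESeq2 on these recovered reads served as alternatives.

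The test was limma (version 3.58.1) in R 4.3.3 on log2(CPM + 0.5), two-sided, with all 8 genotypes and sex in the fit and Benjamini-Hochberg adjustment over 14086 genes. Fold changes on this scale understate changes of low genes. Alternatives were pseudocounts of 0.1 and 1, no filter, TMM scaling, no sex term, surrogate variables (sva 3.50.0), tissue covariates, subsets of mice, edgeR 4.0.16, DESeq2 1.42.0, and leaving out each mouse. Sequencing batch is not in the labels and was not modelled. Scripts used Python 3.11.15 and were tested on simulated data. Replicate numbers follow the order of the samples. Named genes were the called genes with the smallest p, the list members with the smallest p, all members of the TREM2, CSF1 receptor and complement lists where they bear on a result, and genes among the 10 with the smallest p in each difference of effects. Members and lists were chosen with earlier results of these data known. Promoters came from RefSeq on GRCm38.p6, and no protein sequence was used. A few genes of the lists are not reported here by name.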

Additional observations from a re-analysis of the deposited data

Results flagged for a closer look

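The effect of Trem2 deletion differed between the APP/E3 and APP/E4 pairs by an interaction term in limma (adjusted p under 0.05) for the genes given here, as the log2 change in the APP/E3 pair minus that in the APP/E4 pair. Among genes called in the APP/E3 pair the difference was 1.73 for Rec8, 1.22 for Fggy, 0.77 for Lyrm7, 0.58 for Mecr, 0.33 for Odc1, 0.29 for Mfn2 and 0.28 for Ptges3-ps. It was -1.56 for AA465934, -0.79 for Nbl1, -0.76 for Themis2 and -0.59 for Aldh7a1. AA465934 was at a median of 5.26 CPM in APP/E3, 1.07 CPM in APP/E3/Trem2ko and 1.25 CPM in APP/E4 mice. What part the levels with Trem2 intact had in these differences was not tested.

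The genes with the smallest p for the difference, other than Rec8, were not called in the APP/E3 pair. The difference was -3.02 for Gm20186, which was at a median of 4.22 CPM in APP/E3, 4.02 CPM in APP/E3/Trem2ko, 0.00 CPM in APP/E4 and 4.11 CPM in APP/E4/Trem2ko mice. It was -2.38 for the immunoglobulin gene Ighg2c, -1.73 for Tmem267, -1.50 for 4833420G17Rik, -0.87 for the lactonase gene Pon2, -0.85 for the DNA repair gene Tdp1 and -0.48 for Ica1. It was 0.87 for Dennd4a and 0.49 for A830018L16Rik.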

How the results depend on the processing

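In the APP/E3 pair (45 calls) 83 genes were called with 2 surrogate variables, 79 by DESeq2, 21 without the libraries of high Ttr, 15 in females, 14 in males and 33 to 61 without 1 mouse. The count stayed within 1.5 times the main one under the other settings, from 31 (tissue covariates) to 62 (edgeR). The effect differed from that in the E3 pair for 1 gene with surrogate variables, with tissue covariates and by DESeq2, and for 0 to 1 without 1 mouse (1 without E3 replicate 3). It differed from that in the APP/E4 pair for 243 genes with surrogate variables, 115 by DESeq2, 18 without the high-Ttr libraries and 26 to 290 without 1 mouse, with 26 without APP/E3 replicate 9, 290 without APP/E4 replicate 5 and 233 without APP/E4/Trem2ko replicate 9. The sex difference had 0 calls by limma, edgeR and DESeq2. No gene that was followed through the settings changed direction. Those were the called genes, some microglial genes such as Tyrobp and Csf1r, Npas4, Ttr and the genes leading the differences of effects. The other genes named here were not followed in that way. Most calls in the difference from the APP/E4 pair were lower in the main result (33 of 52) and higher with TMM scaling (37 of 67), by edgeR (40 of 74) and by DESeq2 (60 of 115). The cause of these differences was not tested. The setting without libraries under 20 CPM of Neurod6 was chosen after seeing the data. No paired analysis was possible because the labels give no shared replicate numbers. Counts of genes near 1 CPM rest on few reads, and intervals of single values were not used.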
